A study of Mus musculus with 34 samples.

Results

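A set of 10 genes of the metalloproteinase system were followed in mouse blood: the matrix metalloproteinases Mmp8, Mmp9, Mmp14, Mmp19 and Mmp25, the disintegrin metalloproteinases Adam8, Adam17 and Adam19, and the tissue inhibitors Timp1 and Timp2. They were chosen by name, with earlier results of these data known. They were matched by symbol to 10 of the 54532 gene IDs of the count tables, and each symbol matched 1 ID. Messenger RNA was sequenced from the blood of wild-type mice in 4 groups, with 1 numbered mouse behind each library. ALY688+LPS mice received ALY688, an adiponectin receptor agonist, together with lipopolysaccharide (LPS), the endotoxin shed from the wall of Gram-negative bacteria (n = 7). LPS mice received lipopolysaccharide without ALY688 (n = 4), ALY688 mice received ALY688 without lipopolysaccharide (n = 10), and PBS mice received phosphate-buffered saline (n = 9). Of 34 labelled mice 30 were analysed; 3 LPS mice and 1 PBS mouse were not analysed here. The sources used here do not state the dose, sampling time, strain, sex or age of the mice. All 4 groups are labelled as blood, but the series' design text speaks of plasma for the mice given or not given ALY688 and of whole blood for the LPS model. Whether the groups with and without LPS came from 1 experiment is not stated, so LPS and any such difference in material or occasion cannot be told apart.

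Matrix metalloproteinases are zinc proteases made as inactive precursors, and they cut collagens, other matrix proteins, cytokines and chemokines. Neutrophils store MMP8, MMP9 and the membrane-anchored MMP25 in their granules, so that much of the protein is made while the cell matures in the bone marrow. ADAM proteases are membrane proteins, several of which cut other surface proteins and release their outer part, and TIMPs bind and block the active site of metalloproteinases. Blood messenger RNA reports transcripts of circulating cells and says nothing directly about stored or secreted enzyme.

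Libraries held 9554964 to 17338214 counts, and globin genes took 26.3% to 54.3% of the counts in ALY688+LPS, 18.5% to 43.7% in LPS, 42.2% to 60.8% in ALY688 and 45.2% to 64.4% in PBS libraries. Levels are given as CPM, counts divided by the library size in units of 1e6 after scaling by TMM (a factor that makes the bulk of genes comparable between libraries). A floor of 3 counts equalled 0.0687 to 0.904 CPM and covers counting error only, since reads carried no molecular identifiers. In 6 libraries fewer than 16000 genes had a count: ALY688+LPS mice 6 and 8, ALY688 mouse 7, and PBS mice 5, 6 and 9. Markers of blood cells were present in every group: none of the 14 neutrophil, 12 monocyte and 14 erythroid marker genes was at 0 in any group. Of 13 endothelial, fibroblast and skin markers only 1 or 2 in a group, the keratins Krt5, Krt14 or both, had no count. These 13 summed to at most 41.9 CPM in any library, whereas the neutrophil markers summed to at least 502 CPM.

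To show the DNA next to the members that differed most, the 250 bases before the start are printed for the members over 4-fold higher in both LPS comparisons that have a RefSeq entry on GRCm38.p6, which were 4 of 5. They are Mmp8 (chr9:7558179-7558428, plus strand), Mmp14 (chr14:54431348-54431597, plus strand), Mmp25 (chr17:23645270-23645519, minus strand) and Adam8 (chr7:139992563-139992812, minus strand), each written 5′ to 3′ along its gene. Capitals mark matches, on either strand, to motifs of factors active in myeloid cells: AP-1 as TGANTCA, NF-kB as GGG, 5 bases of any kind and CC, PU.1 as GAGGAA and C/EBP as TTGCNNAA.
Mmp8: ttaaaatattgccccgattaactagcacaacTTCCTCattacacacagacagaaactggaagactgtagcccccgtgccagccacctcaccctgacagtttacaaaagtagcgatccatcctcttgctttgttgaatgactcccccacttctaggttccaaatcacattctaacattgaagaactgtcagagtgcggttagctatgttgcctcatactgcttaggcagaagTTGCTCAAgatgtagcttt
Mmp14: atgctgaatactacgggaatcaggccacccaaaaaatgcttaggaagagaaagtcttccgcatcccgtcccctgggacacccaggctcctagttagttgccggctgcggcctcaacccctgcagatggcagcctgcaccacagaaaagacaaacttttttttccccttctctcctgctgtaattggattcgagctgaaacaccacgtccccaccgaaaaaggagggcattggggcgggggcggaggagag
Mmp25: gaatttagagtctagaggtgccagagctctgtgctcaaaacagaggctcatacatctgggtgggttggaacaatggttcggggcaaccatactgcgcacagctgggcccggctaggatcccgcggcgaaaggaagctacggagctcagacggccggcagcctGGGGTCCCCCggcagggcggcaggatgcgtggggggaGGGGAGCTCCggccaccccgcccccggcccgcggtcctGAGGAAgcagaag
Adam8: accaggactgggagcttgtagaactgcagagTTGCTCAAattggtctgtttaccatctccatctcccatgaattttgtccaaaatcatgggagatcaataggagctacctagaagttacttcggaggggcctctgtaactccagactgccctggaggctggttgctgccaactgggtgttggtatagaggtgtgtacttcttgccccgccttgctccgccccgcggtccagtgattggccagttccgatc
The C/EBP letters stood in the Adam8 window from position -219 and in the Mmp8 window from position -19, counted from the start. They were in 2 of the 8 members with an entry and in 9.56% of 32851 windows of all genes. The PU.1 letters began at -219 in Mmp8 and at -13 in Mmp25, and were in 3 of 8 members and 23.3% of windows. Mmp25 held the NF-kB letters from -88 and from -51, a match found in 4 of 8 members and in 45.8% of windows. The AP-1 letters were in 1 of 8 members, Adam19, and in 6.75% of windows, and the Mmp14 window held none of the 4 motifs. A match describes letters only. Adam19 has 3 windows, and a member counts where any of its windows matched.

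LPS was set against PBS, and ALY688+LPS against ALY688, to ask what LPS did to these transcripts without and with the agonist. Of the 9 members tested 8 were higher with LPS in each comparison, and none was lower. The rises spanned 1.67-fold for Adam17 to 18.1-fold for Mmp25 in LPS against PBS, apart from Mmp14, which was near the floor without LPS. Mmp19 was the tested member that was not called, and Timp1 had too few counts to be tested. Calls are from edgeR's quasi-likelihood test with Benjamini-Hochberg adjustment over all genes tested, below 0.05. In LPS against PBS 20.9% of 12353 genes were called higher and 17.9% lower, 38.7% in all. In ALY688+LPS against ALY688 26.4% of 12266 genes were called higher and 26.6% lower, 53% in all. The median log2 fold change of the 9 members was 2.11 in LPS against PBS, beside -0.04 over all genes, and 2.23 in ALY688+LPS against ALY688, beside -0.05. Mmp14 passed the filter on low counts only through the groups given LPS, so it had to differ. The same 8 members did not overlap between groups in either comparison, where 13.2% and 12.6% of genes lay wholly higher and 5.92% and 6.53% wholly lower.

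**Figure D1:**
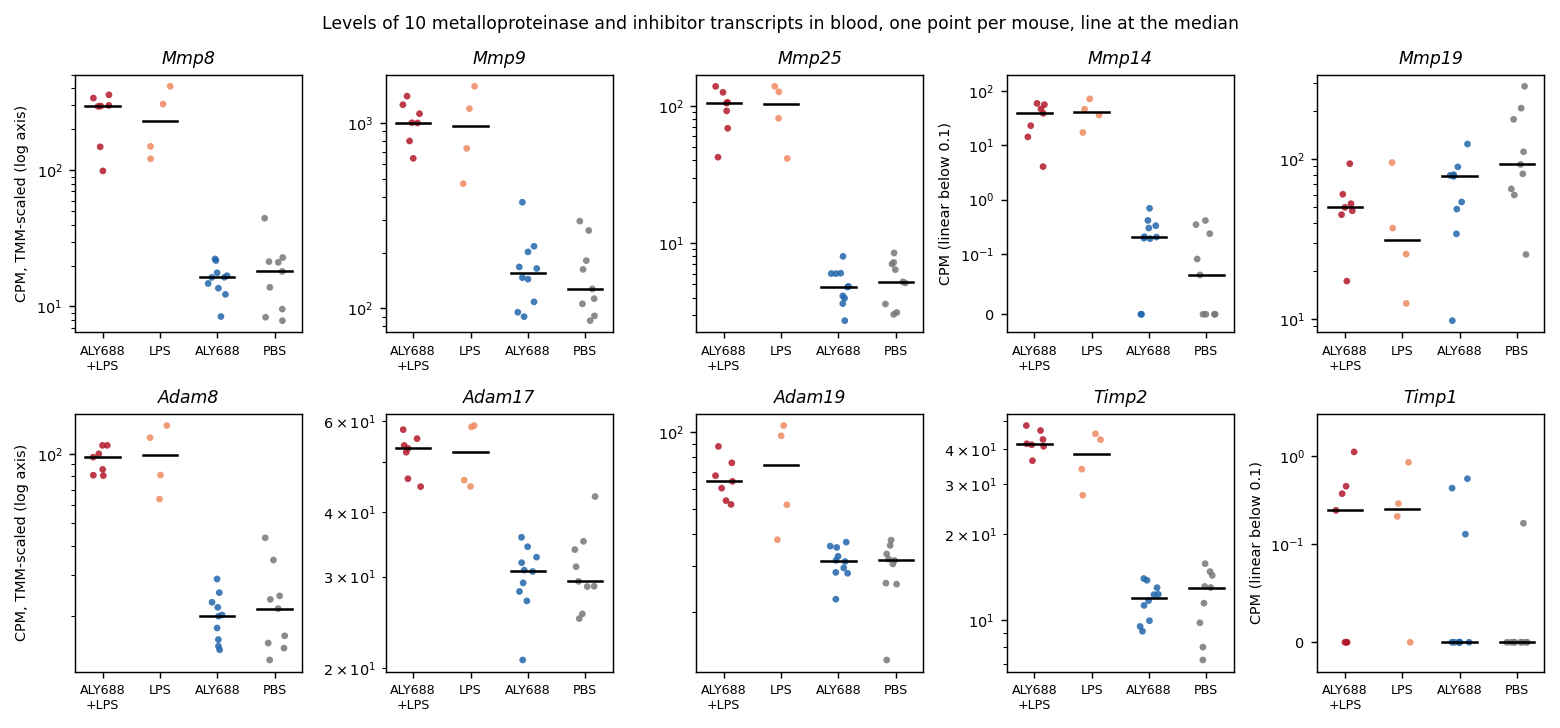
Level of each of the 10 transcripts in every library (CPM, TMM-scaled, log axis; the Mmp14 and Timp1 axes are linear below 0.1 so that 0 can be drawn), with ALY688+LPS, LPS, ALY688 and PBS mice from left to right and a line at each median. In 8 panels every mouse given LPS lies above every mouse not given it, whereas the groups overlap for Mmp19 and Timp1.

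Mmp8 encodes neutrophil collagenase, which cuts fibrillar collagens, and lies on chromosome 9 (9:7558456-7568485, plus strand, GENCODE M21 on GRCm38). It ran from 99.0 to 359 CPM with a median of 297 in ALY688+LPS mice, and was 150, 122, 415 and 307 CPM in LPS mice 2, 6, 7 and 8. Without LPS it ran from 8.44 to 22.3 CPM (median 16.4) in ALY688 mice and from 7.87 to 44.5 CPM (median 18.1) in PBS mice. The lowest LPS-treated mouse, ALY688+LPS mouse 4, was still above the highest mouse not given LPS, PBS mouse 9. Mmp8 was 13.5-fold higher in LPS than in PBS mice (log2 fold change 3.76 ± 0.42 SE, adjusted p = 5.53e-06). With ALY688 in both groups it was 16.4-fold higher (4.04 ± 0.25 SE, adjusted p = 1.00e-10).

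Mmp9 encodes gelatinase B, which cuts denatured and basement-membrane collagens (2:164940780-164955850, plus strand). It ran from 644 to 1394 CPM (median 1002) in ALY688+LPS mice and was 728, 470, 1576 and 1193 CPM in LPS mice 2, 6, 7 and 8. ALY688 mice lay between 90.2 and 373 CPM (median 155) and PBS mice between 85.8 and 295 CPM (median 127). The groups did not overlap, although LPS mouse 6 at 470 CPM and ALY688 mouse 7 at 373 CPM came near each other. The rise was 6.31-fold in LPS against PBS (2.66 ± 0.39 SE, adjusted p = 6.66e-05) and 6.03-fold in ALY688+LPS against ALY688 (2.59 ± 0.28 SE, adjusted p = 2.20e-07). Per kilobase of exon, on which levels of different genes can be compared, Mmp9 was the highest of the 10 members in all 4 groups. Its median was 283 CPM per kb in ALY688+LPS, 271 in LPS, 43.9 in ALY688 and 36.0 in PBS mice.

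Mmp25 encodes leukolysin, a metalloproteinase held on the outer membrane by a lipid anchor (17:23628311-23645277, minus strand). It ran from 42.3 to 139 CPM (median 105) in ALY688+LPS mice and was 81.1, 41.4, 139 and 126 CPM in LPS mice 2, 6, 7 and 8. In ALY688 mice it ran from 2.72 to 8.01 CPM (median 4.81) and in PBS mice from 3.03 to 8.48 CPM (median 5.22). The highest value without LPS was thus far below the lowest with it. Mmp25 rose 18.1-fold in LPS against PBS (4.18 ± 0.31 SE, adjusted p = 1.48e-07) and 19.7-fold in ALY688+LPS against ALY688 (4.30 ± 0.23 SE, adjusted p = 2.75e-11).

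Mmp14 encodes a membrane-type metalloproteinase that cuts collagen at the cell surface and activates the MMP2 precursor in a complex with TIMP2 (14:54431612-54445364, plus strand). It ran from 4.04 to 58.8 CPM (median 38.6) in ALY688+LPS mice and was 46.1, 71.3, 17.1 and 36.0 CPM in LPS mice 2, 6, 7 and 8. In ALY688 mice 37 counts were spread over 8 of 10 libraries, with at most 8 counts in 1 library and 0.691 CPM. In PBS mice 11 counts lay in 5 of 9 libraries, with at most 4 counts and 0.412 CPM, so that levels without LPS were at or near the floor. The fitted rise was 283-fold in LPS against PBS (8.15 ± 0.47 SE, 95% interval 7.15 to 9.14 on the log2 scale, adjusted p = 1.52e-08). In ALY688+LPS against ALY688 it was 123-fold (6.95 ± 0.53 SE, interval 5.84 to 8.05, adjusted p = 5.18e-09), and the size of both rests on the few counts without LPS. The mouse with the least Mmp14 among those given LPS, ALY688+LPS mouse 4, also had the least Mmp8 in that group.

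Mmp19 encodes a soluble metalloproteinase that cuts basement-membrane proteins (10:128790910-128800824, plus strand). It was the member with no rise: it ran from 17.2 to 93.7 CPM (median 49.9) in ALY688+LPS mice and was 25.4, 12.5, 95.3 and 37.0 CPM in LPS mice 2, 6, 7 and 8. ALY688 mice ran from 9.73 to 125 CPM (median 78.3) and PBS mice from 25.3 to 287 CPM (median 92.8). All 4 groups overlapped. The log2 fold change was -1.52 ± 0.62 SE in LPS against PBS (95% interval -2.83 to -0.205). Its p in edgeR's quasi-likelihood test was 0.0262 unadjusted and 0.0636 adjusted. In ALY688+LPS against ALY688 the log2 fold change was -0.37 ± 0.38 SE (adjusted p = 0.427). The fold change in LPS against PBS passed the threshold without PBS mouse 3 (-1.66, adjusted p = 0.0265) or without LPS mouse 7 (-2.28, adjusted p = 0.0151). It was -0.83 (adjusted p = 0.203) without PBS mice 5, 6 and 9, the libraries of few detected genes in this comparison. With the globin percentage as a covariate it changed sign to 1.44 (adjusted p = 0.120). Globin percentages did not overlap between LPS and PBS mice, so that fit cannot separate them from LPS.

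On the TMM scale Mmp19 was high in the libraries with few detected genes. PBS mice 5, 6 and 9 had 209, 178 and 287 CPM and were the 3 highest PBS mice, ALY688 mouse 7 had 125 CPM and was the highest of its group, and ALY688+LPS mice 6 and 8 had 60.3 and 93.7 CPM and were the 2 highest of theirs. In raw counts only PBS mouse 9 stood highest, at 1217. PBS mice 5 and 6 had 693 and 757 counts, beside 1013 in PBS mouse 1. ALY688 mouse 7 had 451, beside up to 1518 in its group. ALY688+LPS mice 6 and 8 had 461 and 369, beside up to 1177. TMM factors ran from 0.333 to 2.52, so these ranks and the relations below depend on the scaling. Within ALY688+LPS mice the Mmp19 level and the globin percentage gave Pearson's r = 0.81 (exact permutation p = 0.00218, n = 7) and Spearman's rho = 0.93 (exact permutation p = 0.00675). Without the 2 libraries farthest from the median globin percentage r was 0.72. In PBS mice r was 0.74 (exact permutation p = 0.0220, n = 9) and rho 0.53 (exact permutation p = 0.148), and r was 0.45 without the 2 farthest. ALY688 mice gave r = 0.21 (permutation p = 0.580, n = 10) and rho = 0.15 (permutation p = 0.686), with r = -0.31 without the 2 farthest. After adjustment over 50 tests of 25 relations between members and globin percentage, none passed (lowest adjusted p = 0.109, for r in ALY688+LPS mice).

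**Figure D2:**
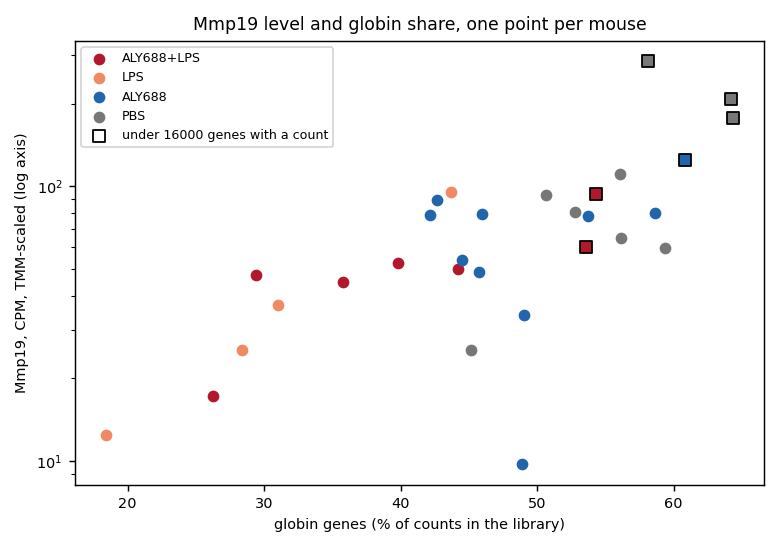
Mmp19 level (CPM, TMM-scaled, log axis) against the percentage of counts in globin genes, with 1 point per mouse coloured by group; squares with a black edge are the 6 libraries of few detected genes. The squares hold the highest Mmp19 values of the PBS, ALY688 and ALY688+LPS groups, up to 287 CPM in PBS mouse 9.

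Adam8 encodes a leukocyte ADAM that sheds adhesion molecules (7:139978932-139992562, minus strand). It ran from 80.5 to 109 CPM (median 96.6) in ALY688+LPS mice and was 80.9, 63.7, 132 and 117 CPM in LPS mice 2, 6, 7 and 8. ALY688 mice had 14.2 to 28.8 CPM (median 19.996) and PBS mice 12.9 to 43.3 CPM (median 21.4). The groups stood apart, and the ALY688+LPS mice varied little among themselves. Adam8 rose 4.33-fold in LPS against PBS (2.11 ± 0.29 SE, adjusted p = 3.52e-05) and 4.71-fold in ALY688+LPS against ALY688 (2.23 ± 0.14 SE, adjusted p = 9.14e-11).

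Adam17 encodes the tumour necrosis factor converting enzyme, the main sheddase of TNF and its receptors (12:21323509-21373632, minus strand). It ran from 44.8 to 57.7 CPM (median 53.1) in ALY688+LPS mice and was 46.1, 58.8, 44.8 and 58.4 CPM in LPS mice 2, 6, 7 and 8. ALY688 mice had 20.7 to 35.7 CPM (median 30.8) and PBS mice 24.9 to 42.9 CPM (median 29.4). The rise was the smallest of the 8 called: 1.67-fold in LPS against PBS (0.74 ± 0.16 SE, adjusted p = 0.00145) and 1.72-fold in ALY688+LPS against ALY688 (0.78 ± 0.09 SE, adjusted p = 9.27e-07). The first was lost with the globin percentage as a covariate (0.63, adjusted p = 0.156) and the second without composition scaling (0.86, adjusted p = 0.0554). Globin percentages of LPS and PBS mice did not overlap, so that covariate cannot be told apart from LPS. Exons of Adam17 overlap those of Iah1 on the other strand by 311 bases, and Iah1 had 4216 counts in all beside 17929 for Adam17. Since the strand setting of the counting is not given, reads in the overlap cannot be assigned. The like holds for Mmp19 and Tmem198b, which share 789 bases and had 23458 and 1007 counts.

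Adam19 encodes a sheddase of neuregulins (11:46055992-46147343, plus strand). It ran from 52.3 to 88.1 CPM (median 64.4) in ALY688+LPS mice and was 52.2, 38.1, 106 and 96.9 CPM in LPS mice 2, 6, 7 and 8. ALY688 mice had 22.4 to 37.3 CPM (median 31.5) and PBS mice 12.96 to 38.0 CPM (median 31.7). LPS mouse 6 at 38.1 CPM lay only just above the highest PBS mouse at 38.0 CPM. The rise was 2.47-fold in LPS against PBS (1.30 ± 0.27 SE, adjusted p = 0.00119) and 2.11-fold in ALY688+LPS against ALY688 (1.08 ± 0.11 SE, adjusted p = 1.75e-07).

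Timp2 encodes the inhibitor that also serves MMP14 in activating the MMP2 precursor (11:118301069-118355740, minus strand). It ran from 36.3 to 48.3 CPM (median 41.7) in ALY688+LPS mice and was 33.9, 27.5, 43.1 and 45.2 CPM in LPS mice 2, 6, 7 and 8. ALY688 mice had 9.12 to 13.99 CPM (median 11.98) and PBS mice 7.23 to 15.8 CPM (median 13.002). Every mouse given LPS was above every mouse not given it. Timp2 rose 3.16-fold in LPS against PBS (1.66 ± 0.20 SE, adjusted p = 1.19e-05) and 3.64-fold in ALY688+LPS against ALY688 (1.87 ± 0.09 SE, adjusted p = 9.54e-12).

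Timp1, which encodes the inhibitor that binds the MMP9 precursor (X:20870166-20874735, plus strand), had few counts in these libraries. It had 45 counts in 4 of 7 ALY688+LPS libraries, 33 counts in 3 of 4 LPS libraries, 9 counts in 3 of 10 ALY688 libraries and 2 counts in 1 of 9 PBS libraries. The highest library in each group held 19, 21, 5 and 2 counts in that order. Per effective library size the summed counts were 12.8 times as high in LPS as in PBS mice (95% exact counting interval 3.28 to 110) and 5.84 times as high in ALY688+LPS as in ALY688 mice (2.82 to 13.6), intervals that leave out the variation between mice. Without the filter on low counts edgeR gave log2 fold changes of 3.43 ± 1.03 SE (adjusted p = 0.0166) and 2.12 ± 0.89 SE (adjusted p = 0.0774). A library without a Timp1 count allows up to 0.904 CPM in PBS and 0.762 CPM in ALY688+LPS mice at the shallowest.

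The order of the members differed between groups by their levels per kilobase of exon. After Mmp9, Mmp8 ranked next in ALY688+LPS (median 122 CPM per kb) and in LPS mice (94.2), whereas Mmp19 ranked next in ALY688 (22.2) and in PBS mice (26.3). Adam8 and Mmp25 took ranks 3 and 4 in both groups given LPS, at 20.8 and 19.7 CPM per kb in ALY688+LPS and 21.4 and 19.6 in LPS mice, and these neighbours overlapped between mice. Mmp25 took rank 8 in ALY688 mice at 0.907 CPM per kb. Mmp14 took rank 9 and Timp1 rank 10 in all 4 groups.

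Ratios within a library do not depend on the scaling between libraries, and they are given as a description. Mmp8 over Mmp9, each per exon length, was 0.224 to 0.438 (median 0.386) in ALY688+LPS mice and 0.301 to 0.384 (median 0.376) in LPS mice, against 0.0691 to 0.272 (median 0.130) in ALY688 mice and 0.109 to 0.247 (median 0.163) in PBS mice. Mmp25 over Mmp9 was 0.0438 to 0.0709 in ALY688+LPS and 0.0587 to 0.0743 in LPS mice, against 0.0143 to 0.0273 in ALY688 and 0.0163 to 0.0303 in PBS mice, without overlap. The 3 neutrophil metalloproteinases thus changed unequally, Mmp9 least. Mmp9 over Timp2 had medians of 26.6 in ALY688+LPS, 26.4 in LPS, 14.4 in ALY688 and 13.5 in PBS mice, and mice given and not given LPS overlapped. Adam8 over Adam17 was 2.29 to 3.62 in ALY688+LPS and 1.67 to 4.55 in LPS mice, against 0.614 to 1.52 in ALY688 and 0.691 to 1.56 in PBS mice.

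**Figure D3:**
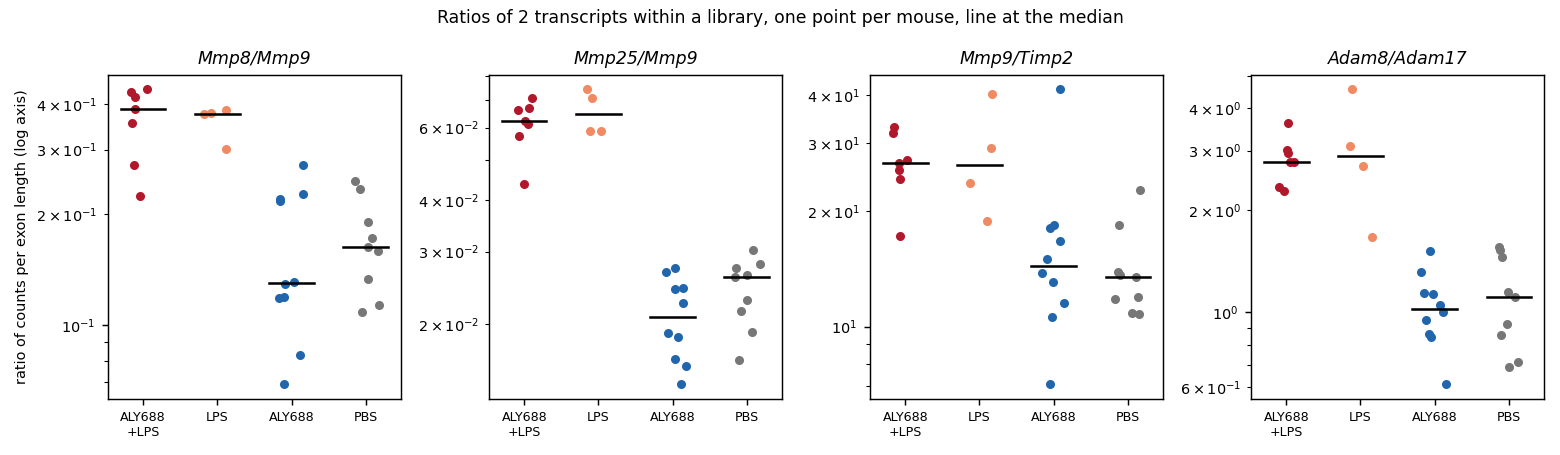
Ratio of 2 transcripts within each library (counts per exon length, log axis), with ALY688+LPS, LPS, ALY688 and PBS mice from left to right and a line at each median. Mmp25/Mmp9 and Adam8/Adam17 are higher in every mouse given LPS, whereas mice given and not given LPS overlap for Mmp8/Mmp9 and Mmp9/Timp2.

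Neutrophil markers moved with the members. In LPS against PBS 12 of 14 neutrophil marker genes rose and 1 fell (median log2 fold change 2.85, beside -0.04 over all genes). The smallest p-values were those of the formyl peptide receptors Fpr1 (5.39 ± 0.33 SE) and Fpr2 (4.88 ± 0.36 SE), Ly6g (4.61 ± 0.41 SE) and Mcemp1 (2.96 ± 0.29 SE). With ALY688 in both groups 13 rose and 1 fell (median 3.57). Their summed level was 5260 to 12984 CPM in ALY688+LPS and 3914 to 13358 CPM in LPS mice, against 502 to 1198 CPM in ALY688 and 628 to 2155 CPM in PBS mice. In bulk blood more cells of a type and more RNA per cell cannot be told apart, and the part of neutrophil share in the members' rise was not tested. Only 13 of the 14 markers passed the filter on low counts in ALY688 against PBS. A marker may thus have passed it only through mice given LPS and had to differ. The make-up of the summed level differed between groups. S100a8 and S100a9 had medians of 3218 and 3628 CPM in ALY688+LPS mice, where the sum had a median of 10452 CPM. In ALY688 mice they had 171 and 212 CPM, beside 948 CPM for the sum. A percentage of this sum is thus not a level per neutrophil. Set against the summed neutrophil markers, Mmp8 was 2.38% in ALY688+LPS, 2.99% in LPS, 1.69% in ALY688 and 1.67% in PBS mice as medians, and Mmp25 was 0.839%, 1.11%, 0.532% and 0.498% in the same order. Mmp25 did not overlap between mice given and not given LPS on that measure, whereas Mmp8 did overlap between ALY688+LPS and ALY688 mice. Mmp9 had lower medians with LPS, 9.56% in ALY688+LPS and 11.5% in LPS mice, against 18.5% in ALY688 and 14.6% in PBS mice, and overlapped. In the same order of groups the medians were 0.931%, 1.13%, 2.03% and 2.17% for Adam8, which overlapped, and 0.603%, 0.852%, 3.44% and 3.53% for Adam19. Adam19 did not overlap between mice given and not given LPS. Timp2 had 0.419%, 0.457%, 1.39% and 1.19% and did not overlap within either LPS comparison, although ALY688+LPS mouse 4 at 0.786% lay above PBS mouse 9 at 0.732%. Of 12 listed markers of immature neutrophil granules 7 were tested in each LPS comparison. All 7 rose in LPS against PBS (Lcn2 6.14, Ngp 5.58) and 6 rose in ALY688+LPS against ALY688. Only 5 of the 12 passed the filter on low counts in ALY688 against PBS. Some of the 7 may thus have passed it only through mice given LPS, and such genes had to differ.

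Markers of other cell types changed as well. Of 12 monocyte markers 9 rose and 1 fell in each LPS comparison (median 1.09 in LPS against PBS and 1.25 in ALY688+LPS against ALY688), with summed levels of 1433 to 1796 CPM in ALY688+LPS and 1441 to 2017 CPM in LPS mice, against 524 to 1012 CPM in ALY688 and 521 to 1845 CPM in PBS mice. All 10 B cell and all 10 T cell markers fell in both comparisons. Of 8 natural killer cell markers 5 rose in LPS against PBS, whereas 2 rose and 1 fell in ALY688+LPS against ALY688. Of 11 platelet markers tested 5 fell in LPS against PBS and 0 changed in ALY688+LPS against ALY688, and of 14 erythroid markers 2 fell in the first comparison and 1 rose in the second. Endothelial, fibroblast and skin markers summed to at most 41.9 CPM in any library.

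For each member that rose, the genes with the most similar profile over 30 libraries were found among 10706 genes, by the root mean square difference of centred log2 CPM. Nearest to Mmp8 were S100a8 (0.34), Mmp25 (0.34) and S100a9 (0.37), and nearest to Mmp25 were S100a8 (0.29), Chil1 (0.31) and Mmp8 (0.34). Mmp9 had Pygl (0.31), Cd300lf (0.33) and Cxcr2 (0.33). The genes nearest to Mmp14 were Nos2 (0.88), Gpr84 (0.96) and Acod1 (0.99), at a greater distance than for any other member. Nos2 had a median of 22.6 CPM in ALY688+LPS and 18.4 CPM in LPS mice, against 0 CPM in ALY688 and PBS mice. Timp2 had Tnfrsf1a (0.23), Nfam1 (0.23) and Rab27a (0.24), and Adam8 had Rasgrp4 (0.18), Hk3 (0.21) and Ptafr (0.22). Adam17 was nearest to Ykt6 (0.17) and Sel1l (0.18), and Adam19 to Cfap43 (0.20), Sipa1l2 (0.23) and Lbr (0.23).

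Few other members of these families passed the filter on low counts. Of 21 other MMPs and TIMPs with Reck 2 passed the filter in each LPS comparison. Reck, a membrane-anchored inhibitor of metalloproteinases, averaged 4.72 ± 1.60 CPM in LPS and 1.48 ± 0.78 CPM in PBS mice (SD, n = 4 and 9) and rose in both comparisons (1.63 ± 0.37 SE, adjusted p = 0.00236; 1.57 ± 0.28 SE, adjusted p = 9.53e-05). Mmp11, stromelysin-3, did not pass the filter in LPS against PBS. In ALY688+LPS against ALY688 Mmp11 fell (-3.0007 ± 0.57 SE, adjusted p = 0.000199), from counts of at most 29 in a library. It averaged 0.09 CPM in ALY688+LPS and 0.87 CPM in ALY688 mice. Mmp11 thus passed the filter through the ALY688 mice, which favoured a fall. Of 15 other ADAMs 3 of 6 tested rose in LPS against PBS and 3 of 5 in ALY688+LPS against ALY688. Only 3 of the 15 passed the filter in ALY688 against PBS, so some may have passed only through mice given LPS. Adam15 rose in both (2.20 ± 0.25 SE and 2.07 ± 0.14 SE). Adam10, the other main sheddase, was at 80.5 ± 17.9 CPM in LPS and 78.0 ± 42.7 CPM in PBS mice (0.05 ± 0.33 SE, adjusted p = 0.909), and rose in ALY688+LPS against ALY688 (0.62 ± 0.13 SE, adjusted p = 0.000427). The interaction did not pass for Adam10 (0.56 ± 0.33 SE, adjusted p = 0.508). Of 19 ADAMTS proteases 3 were tested, and Adamts6 fell in both comparisons (-1.68 ± 0.31 SE and -2.14 ± 0.28 SE).

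Of 12 partners of ADAM17 and ADAM10 and proprotein convertases tested in LPS against PBS 5 rose and 2 fell, and in ALY688+LPS against ALY688 7 rose and 1 fell. Rhbdf2, which encodes iRhom2, the factor that carries ADAM17 to the cell surface in immune cells, rose in both (1.05 ± 0.17 SE, adjusted p = 0.000194; 0.86 ± 0.08 SE, adjusted p = 2.47e-08). Furin, a convertase that removes the prodomain of ADAM and membrane-type MMP precursors, rose by 1.26 ± 0.22 SE and 1.24 ± 0.10 SE. Rhbdf1, which encodes iRhom1, fell in both (-2.24 ± 0.45 SE and -1.19 ± 0.30 SE), from a mean of at most 2.59 CPM.

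Genes of proteins known to be shed by ADAM17 or ADAM10 also rose more often than they fell. In LPS against PBS 14 of 23 tested rose and 3 fell (median 1.05), and in ALY688+LPS against ALY688 16 of 22 rose and 2 fell (median 1.04). Only 20 of the 28 listed passed the filter on low counts in ALY688 against PBS. Some may thus have passed it only through mice given LPS, and such genes had to differ. Tnf, the cytokine released by ADAM17, was at 19.6 ± 8.42 CPM in LPS and 1.52 ± 0.55 CPM in PBS mice (SD, n = 4 and 9) and rose by 3.63 ± 0.29 SE. The TNF receptor genes Tnfrsf1a and Tnfrsf1b each rose by 1.85 in ALY688+LPS against ALY688. Il1r2, a decoy receptor that is also among the neutrophil markers, rose by 5.04 ± 0.38 SE. Fcer2a, a B cell receptor for IgE, fell by 3.55 in LPS against PBS, where all 10 B cell markers fell. Of the genes of plasminogen activation Plaur (1.64 ± 0.18 SE and 1.76 ± 0.13 SE) and Plau (1.76 ± 0.46 SE and 1.68 ± 0.46 SE), the urokinase receptor and urokinase, rose in both comparisons. They were 2 of 4 tested that rose in the first, where Serpine2 fell, and 2 of 3 that rose in the second. Plau averaged 0.682 CPM in ALY688 and 0.915 CPM in PBS mice. Only 3 of the 8 listed genes of plasminogen activation passed the filter in ALY688 against PBS. Some, such as Plau, may thus have passed only through mice given LPS, and such genes had to differ. Of collagens and matrix proteins 5 of 10 tested rose and 2 fell in LPS against PBS, and 4 of 7 rose in ALY688+LPS against ALY688. Only 4 of the 15 listed passed the filter on low counts in ALY688 against PBS, so some may have passed only through mice given LPS.

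Limits on the LPS comparisons concern scale. Without composition scaling the median of all genes moved to 1.04 in LPS against PBS, and 5600 genes were called higher and 296 lower, beside 2577 and 2208 with TMM. Between ALY688+LPS and ALY688 mice the split was 1845 and 1204, beside 3236 and 3268. The 8 members were called higher in LPS against PBS under either scaling. With the globin percentage as a covariate, the fold of several rises in LPS against PBS moved by over 1.5 times. Their log2 fold changes moved upwards to 5.69 for Mmp8, 4.05 for Mmp9, 5.73 for Mmp25, 2.97 for Adam8 and 2.48 for Timp2. That of Mmp14 moved downwards to 6.20. Globin percentages did not overlap between LPS (18.5% to 43.7%) and PBS mice (45.2% to 64.4%). This fit therefore cannot separate the globin percentage from LPS, and its values are given as a description.

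ALY688 was set against PBS to ask whether the agonist alone was followed by a change in these transcripts, and none of the 8 members tested was called. No gene was called among 11708 (0%), and 1250 genes but none of the members had an unadjusted p below 0.05; DESeq2 and limma-voom also called 0 members and 0 genes. Adjusted p-values of the members ran from 0.442 to 0.934. The narrowest interval was that of Adam17, with a log2 difference of -0.06 and a 95% interval of -0.28 to 0.17. Mmp8 differed by -0.21 (-0.79 to 0.37), Mmp9 by 0.11 (-0.50 to 0.72), Mmp25 by -0.13 (-0.60 to 0.34), Adam8 by -0.19 (-0.63 to 0.24), Adam19 by 0.07 (-0.21 to 0.34) and Timp2 by -0.03 (-0.34 to 0.28). These intervals leave room for changes up to the stated bounds. Mmp19 had the largest difference, -0.87 (-1.75 to 0.00385, unadjusted p = 0.0509), and the groups overlapped. Leaving out the libraries with few detected genes in these groups, PBS mice 5, 6 and 9 and ALY688 mouse 7, gave -0.25, as did the globin percentage as a covariate.

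ALY688+LPS was set against LPS to ask whether the agonist altered the members under LPS, and again none of 9 was called, as was no gene among 12741 (0%). An unadjusted p below 0.05 was found for 463 genes and for 0 members, DESeq2 and limma-voom called 0 members, and adjusted p-values of the members ran from 0.913 to 0.999. Log2 differences were 0.07 for Mmp8 (95% interval -0.79 to 0.93), 0.05 for Mmp9 (-0.71 to 0.81), -0.31 for Mmp14 (-1.57 to 0.95) and 0.29 for Mmp19 (-0.83 to 1.41). For Adam17 the difference was -0.01 (-0.28 to 0.27), for Adam8 -0.07 (-0.49 to 0.36), for Timp2 0.19 (-0.12 to 0.49) and for Adam19 -0.15 (-0.70 to 0.40). With 4 LPS mice, whose Mmp8 ran from 122 to 415 CPM, these intervals are wide. Mmp25 averaged 96.8 ± 32.9 CPM in ALY688+LPS and 97.0 ± 44.6 CPM in LPS mice (SD, n = 7 and 4). None of the genes of the pathway and cell type lists was called in either ALY688 comparison.

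The interaction, the LPS response with ALY688 minus that without, was tested in a fit of all 4 groups, and 0 of 9 members and 0 of 13476 genes (0%) were called. An unadjusted p below 0.05 was found for 1217 genes and 0 members, and DESeq2 called 4 genes, none of them a member. The largest differences were -1.22 ± 0.97 SE for Mmp14 (95% interval -3.21 to 0.78) and 1.16 ± 0.71 SE for Mmp19 (-0.29 to 2.61), and the other 7 lay between -0.22 and 0.28. Leaving out the 6 libraries with few detected genes gave 0.26 for Mmp19, and with the globin percentage as a covariate Mmp19 gave 0.075 and Mmp14 -0.17. The Mmp14 value rests on the few counts without LPS, 37 in ALY688 and 11 in PBS mice.

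**Figure D4:**
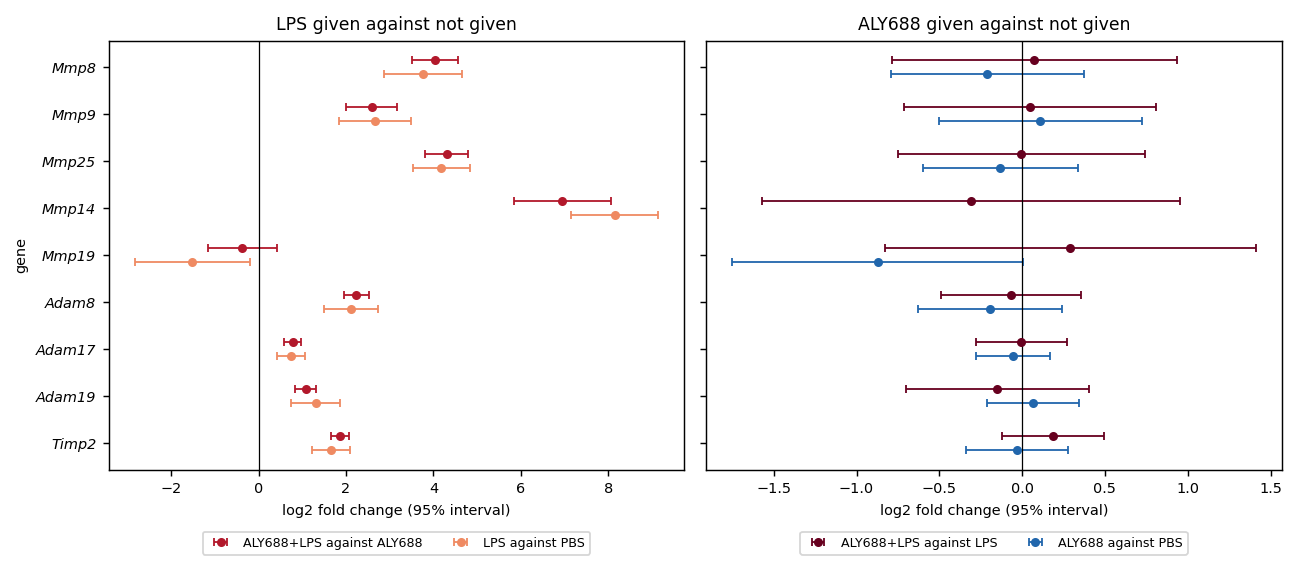
Log2 fold changes with 95% intervals from edgeR for the members, with LPS given against not given on the left and ALY688 given against not given on the right; Timp1 was not tested and Mmp14 was not tested in ALY688 against PBS. Intervals on the left lie above 0 for 8 members, with Mmp14 the farthest at 8.15. That of Mmp19 in LPS against PBS lies below 0 (-2.83 to -0.205), although Mmp19 was not called after adjustment. Every interval on the right includes 0.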

How the data were processed

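Libraries were made from poly-A RNA of blood with random priming; whether they kept strand is not settled by the wording, per the labels' protocols. The authors deposited 1 file of raw read counts for each mouse, with whole numbers and no normalization. The submitters' processing notes name the aligner HISAT2 (2.0.5) and the counter featureCounts (1.5.0-p3). The sources used here give no build, annotation or strand setting.

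Symbols came from a reference table of gene names (54409 of 54532 IDs matched) and coordinates from GENCODE M21 on GRCm38 (54495 matched). Each comparison was fitted on its own groups with edgeR 4.0.16 (R 4.3.3): filterByExpr, TMM, robust glmQLFit and glmQLFTest, two-sided, Benjamini-Hochberg adjustment over all genes tested, called below 0.05. The interaction used all 4 groups. Levels are TMM-scaled CPM without a pseudocount, and profiles were compared on log2 CPM with a prior count of 2. Alternatives were DESeq2 1.42.0, limma-voom (limma 3.58.1), other scalings and filters, a globin covariate, a replicate block and left-out mice. The code was tested on simulated data. No pair of libraries of 1 group agreed within sampling noise (closest pair: chi-square 8.75 per degree of freedom).

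The members and gene lists were chosen with earlier results of these data known. Named were all members, up to 4 tested genes per list with the smallest p, and the 3 genes nearest in profile to each member called (1 of these is not reported here); Rhbdf1, and Adam10 in LPS against PBS, were named after their values were seen. Same-numbered mice were not taken as pairs.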

Additional observations from a re-analysis of the deposited data

Results flagged for a closer look

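Of the 40 sets of member values (10 members in 4 groups), 5 had 1 mouse far from the rest of its group, and chance alone gives about 1 in 20. Mmp8 was 44.5 CPM in PBS mouse 9, with the next highest PBS mouse at 22.9 CPM. Mmp9 was 373 CPM in ALY688 mouse 7, and the next ALY688 mouse had 216 CPM. Adam19 was 12.96 CPM in PBS mouse 5, below the next lowest PBS mouse at 25.6 CPM. These 3 libraries are among the 6 with fewer than 16000 genes with a count. In raw counts only the Adam19 value stood at the end of its group, at 43 counts. Mmp8 had 189 counts in PBS mouse 9, beside 211 in PBS mouse 4. Mmp9 had 1352 counts in ALY688 mouse 7, beside up to 3372 in its group. The distance of the Mmp8 and Mmp9 values thus depends on the scaling between libraries. Timp1 was 1.11 CPM in ALY688+LPS mouse 4, with the next at 0.454 CPM, and 0.173 CPM in PBS mouse 2, where the other PBS mice had no count. The rate of 1 in 20 does not hold for these Timp1 sets, where several mice had no count.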

How the results depend on the processing

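In LPS against PBS 7 members were called with the globin percentage as a covariate (Adam17 lost) and 8 or 9 under the other settings; DESeq2 (-1.55, adjusted p = 0.0215), limma-voom (-1.57, 0.0386) and all 4 groups in 1 fit (-1.53, 0.0331) added Mmp19 as lower, and no filter added Timp1. In ALY688+LPS against ALY688 7 were called without composition scaling and 8 otherwise, and in the other comparisons 0 in all settings. Leaving out each mouse gave 8 or 9 and 8 calls in the LPS comparisons, and 0 elsewhere. Over all genes in ALY688+LPS against ALY688, calls without composition scaling (1845 higher, 1204 lower) were fewer than with TMM (3236 and 3268). In the interaction DESeq2 called 1 gene higher and 3 lower, against 0 in edgeR.

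The signs that turned were those of members not called, and the cause was not tested. Without composition scaling, ALY688 against PBS gave Mmp8 0.50, Mmp25 0.43, Timp2 0.57, Adam8 0.39 and Adam17 0.51, where the median of all genes was 0.50. In ALY688+LPS against LPS it gave Mmp8 -0.10, Mmp9 -0.17, Mmp19 -0.071 and Timp2 -0.20 (median of all genes -0.49), and in the interaction Mmp8 -0.60, Mmp25 -0.64, Timp2 -0.77, Adam8 -0.80 and Adam17 -1.04 (median -0.998). With the globin covariate Mmp19 was 1.44 in LPS against PBS, where globin percentages did not overlap between the groups and cannot be separated from LPS. The same covariate gave Mmp8 0.18, Mmp25 0.17, Timp2 0.11 and Adam19 -0.076 in ALY688 against PBS, Mmp14 0.37, Mmp19 -0.19 and Adam17 0.050 in ALY688+LPS against LPS, and Mmp25 -0.031 and Adam8 -0.063 in the interaction. Without the libraries of few detected genes Mmp8 was 0.18, Timp2 0.11, Adam17 0.035 and Adam19 -0.026 in ALY688 against PBS, Mmp19 -0.023 and Mmp25 0.084 in ALY688+LPS against LPS, and Mmp8 -0.00311, Mmp9 0.11 and Adam17 -0.044 in the interaction. Limma-voom gave Mmp8 0.036 and Timp2 0.060 in ALY688 against PBS, Mmp8 -0.049, Mmp9 -0.019 and Adam17 0.0089 in ALY688+LPS against LPS, and Mmp8 -0.19, Mmp25 -0.11 and Adam8 -0.042 in the interaction. With no filter Timp2 was 0.0043 in ALY688 against PBS and Adam17 -0.00942 in the interaction. DESeq2 size factors gave Adam17 0.0022, and all 4 groups in 1 fit gave Mmp25 0.00075, in ALY688+LPS against LPS.

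Same-numbered mice deviated together (r above 0.1) in 2 of 4, 2 of 7, 2 of 9 and 1 of 3 pairs of the comparisons, with r from -0.501 to 0.298. So few pairs cannot settle whether such mice share more than a number. With the replicate block 8 members were called in LPS against PBS, 8 in ALY688+LPS against ALY688 and 0 in ALY688 against PBS, ALY688+LPS against LPS and the interaction. The block turned Mmp8 to -0.012, Mmp25 to 0.10 and Adam17 to 0.019 in ALY688+LPS against LPS and Mmp9 to 0.037 in the interaction.

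Leaving out 1 mouse at a time gave these ranges. In ALY688 against PBS Mmp8 was -0.32 to 0.060, Mmp9 -0.12 to 0.27, Timp2 -0.11 to 0.026, Adam17 -0.090 to 0.011 and Adam19 -0.026 to 0.11. In ALY688+LPS against LPS Mmp8 was -0.15 to 0.45, Mmp9 -0.19 to 0.38, Mmp14 -0.56 to 0.059, Mmp19 -0.028 to 1.07, Mmp25 -0.26 to 0.23, Adam8 -0.23 to 0.12, Adam17 -0.071 to 0.051 and Adam19 -0.37 to 0.094. In the interaction Mmp9 was -0.30 to 0.26, Mmp25 -0.14 to 0.34, Adam8 -0.052 to 0.29, Adam17 -0.031 to 0.095 and Adam19 -0.45 to 0.0048. Depth limits Timp1 and, without LPS, Mmp14.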
